A study of Homo sapiens with 11 samples.

Results

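Glycolysis and hypoxia target genes were followed in a pair of established colorectal cancer lines of human origin, HCT-116 and RKO, exposed to the aromatic aldehyde phenylacetaldehyde (PAA). The set holds 34 genes taken by symbol from a table of 60612 genes: 17 enzymes of glycolysis and lactate formation, 4 transporters of glucose and lactate, 4 regulatory kinases, 8 target genes of the hypoxia-inducible factor (HIF), and HIF1A itself. Of the 34, 32 passed the filter on low values, an FPKM (fragments scaled by transcript length and library depth) of at least 1 in at least 2 libraries, as did 13881 genes in all. CA9 and EGLN3 did not pass. The 11 libraries form 4 groups: HCT-116 with PAA for 24 h (n = 3), HCT-116 with 0.1% DMSO as vehicle (n = 3), RKO with PAA for 24 h (n = 3) and RKO with the same vehicle (n = 2, replicates 2 and 3). The labels give no dose of PAA, no time for the vehicle and no mutation or transgene for either line. They do not say whether replicates were separate cultures. The p-values therefore weigh a difference only against the spread between these libraries, and that spread may be technical.

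Glycolysis splits glucose into pyruvate through a chain of cytosolic enzymes, and lactate dehydrogenase turns pyruvate into lactate, which monocarboxylate transporters carry out of the cell. HIF is a transcription factor made of an oxygen-regulated alpha subunit, such as the product of HIF1A, and a stable partner, and when oxygen is low it binds hypoxia response elements and raises many genes of this chain together with angiogenic and mitophagy genes. Colorectal tumours commonly use glucose this way even with oxygen present, and the alpha subunit is controlled largely through breakdown of the protein, which RNA levels do not show.

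Depth, estimated by taking the most common low value as 1 fragment, was 13650000 to 22780000 fragments per library. It is rough, since only 20.81 to 25.12% of low values were whole multiples of that fragment. Libraries of a group correlated at 0.976 to 0.985 (Pearson r of log2 values across genes, which are not independent replicates). Colon epithelium markers summed to an FPKM of 361 to 414 in HCT-116 with DMSO and 344 to 351 with PAA, and to 32.4 to 34 and 31.4 to 33.5 in RKO, where CDH1 was at 0 to 0.127. CDX1, at 0 to 0.182, and VIL1, at 0 to 0.0308, were at or near 0 in both lines. Of 15 markers of other cell types, the immune markers PTPRC and CD3E were listed at 0 in every library. The 15 markers summed to 6.08 to 8.4 with DMSO and 10.3 to 14.7 with PAA in HCT-116, and 204 to 206 and 245 to 249 in RKO, where CD68, which encodes a lysosomal protein, alone stood at 203 to 248. In HCT-116 CD68 was at 1.6 to 2.81 with DMSO and 7.09 to 8 with PAA, and COL1A1 at 1.54 to 2.55 over both. The liver marker ALB was uneven there, at 0, 1.54 and 0.0891 with DMSO and 2.7, 3.41 and 0.0135 with PAA. The part of these markers in the results was not tested. Mitochondrially encoded RNA took 38.22 to 40.24% of FPKM in HCT-116 with DMSO and 31.18 to 31.37% with PAA, and in RKO 33.83 to 34.94% and 18.21 to 18.53%.

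With PAA, RNA of the glycolytic enzymes LDHA, PGK1 and PGAM1 was lower in both lines, while the HIF targets VEGFA and NDRG1 and the glucose transporter gene SLC2A3 were higher in both. In HCT-116, 5 members were higher and 17 lower of 32 tested, or 68.8% called at an adjusted p below 0.05 (limma, Benjamini-Hochberg over 13881 genes, as for every adjusted p here), beside 47.1% of all genes (21.7% higher and 25.3% lower). The groups did not overlap for 22 members in HCT-116 and 23 in RKO, beside 56.5% and 61.6% of all genes tested. In RKO, 6 were higher and 13 lower, or 59.4%, beside 40% of all genes (25.7% higher and 14.3% lower). The members' median log2 fold change of FPKM + 1 was -0.28 in HCT-116 and -0.16 in RKO, beside -0.007 and 0.059 over all genes tested. Adding 1 to FPKM shrinks the fold change of genes with low values, and in a bulk sample fewer cells that express a gene and less RNA per cell cannot be told apart.

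The lines shared 10 members lower in both, beside 8.72% of all genes, and 3 higher in both, beside 12.4%. PFKM, PFKFB4 and BNIP3L were called in opposite directions, lower in HCT-116 and higher in RKO, as were 3.99% of all genes. The 10 lower in both were GPI, ALDOC, TPI1, PGK1, PGAM1, PKM, LDHA, LDHB, PDK3 and HIF1A. Counts in RKO depended on scaling. When every library was scaled to a common total of FPKM, the median of all genes in RKO moved from 0.059 to 0.28 and the members were called 11 higher and 6 lower, while 49.9% of all genes tested were then called higher and 5.22% lower. The members' median then lay 0.22 below that of all genes, as it did in the values as deposited. The 6 that remained lower were TPI1, PGK1, PGAM1, LDHA, SLC16A3 and PDK3, and all 6 higher members remained higher. The share of higher genes among all calls moved from 64.3% to 90.5% in RKO and from 46.2% to 61.2% in HCT-116.

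**Figure D1:**
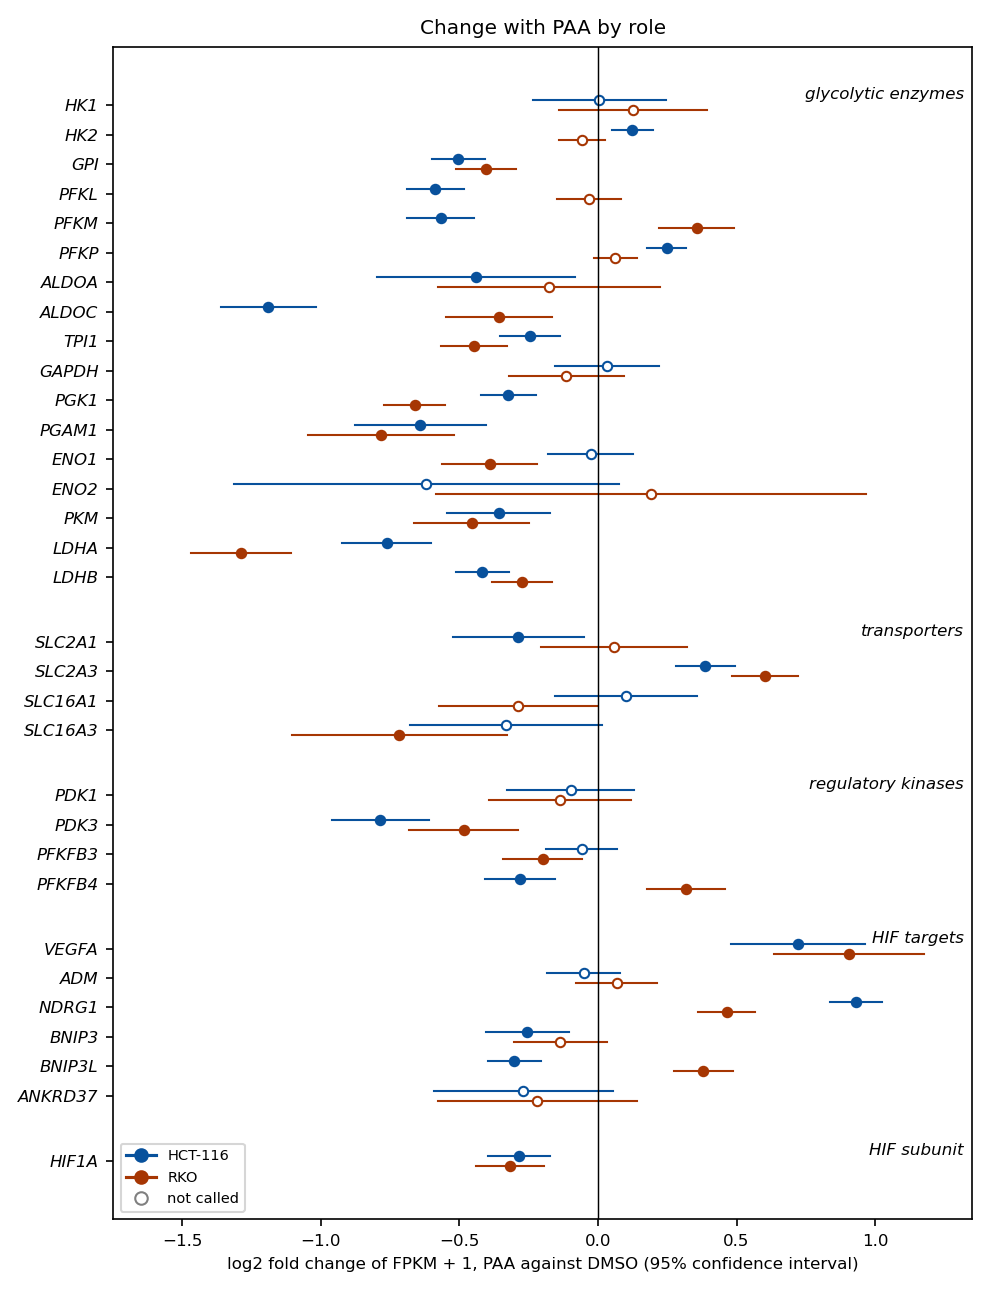
Log2 fold change of FPKM + 1 with PAA against DMSO for the 32 members tested, by role, in HCT-116 (blue) and RKO (brown); bars are 95% confidence intervals from limma and open circles did not reach an adjusted p of 0.05. LDHA is the farthest left in RKO at -1.29 and ALDOC in HCT-116 at -1.19, while VEGFA and NDRG1 lie to the right of 0 in both lines.

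Among the 17 enzymes, 2 were higher and 11 lower in HCT-116 (median log2 fold change -0.42), and RKO had 1 higher and 9 lower (median -0.28). Of all genes tested, 21.7% were higher and 25.3% lower in HCT-116, and 25.7% and 14.3% in RKO. With the common total the enzymes in RKO were 5 higher and 4 lower, beside 49.9% and 5.22% of all genes. Their median was then 0.27 below that of all genes. LDHA encodes the subunit of lactate dehydrogenase that favours lactate formation, and it lies on chromosome 11 at 18394388 to 18408425 of GRCh38. Its FPKM was 107, 121 and 114 with DMSO and 73.7, 62.6 and 63.8 with PAA in HCT-116. In RKO it was 110 and 106 with DMSO and 44.1, 41 and 45.6 with PAA. The lines began at similar levels, the groups did not overlap in either, and the PAA libraries of RKO were the lowest of all 11. The log2 fold change was -0.76 ± 0.071 (SE) in HCT-116 (adjusted p = 2.78e-05) and -1.29 ± 0.079 in RKO (adjusted p = 4.71e-06). The difference between the lines, RKO minus HCT-116, was -0.53 ± 0.11 (adjusted p = 0.00552). With the common total the value in RKO was -1.003, and with median-of-ratios scaling -1.39. Beside the gene, 6 pseudogenes named after LDHA held 1.88 to 8.69% of the summed FPKM per library, so that reads may be shared with them. LDHB, the subunit that favours the reverse reaction, was also lower, at -0.42 in HCT-116 and -0.27 in RKO, where it was 0.013 and not called under the common total.

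PGK1 encodes phosphoglycerate kinase, which makes ATP from bisphosphoglycerate, and it lies on chromosome X at 77910739 to 78129296, overlapping ATP7A on the same strand (mean FPKM 1.245). Its FPKM was 76.6, 69.4 and 70.7 with DMSO and 55.7, 58.5 and 58.1 with PAA in HCT-116, and 87 and 82.6 with DMSO and 52.6, 52.3 and 54.8 with PAA in RKO. The DMSO libraries were higher in RKO and the PAA libraries lower, with no overlap between treatments in either line. Its log2 fold change was -0.32 ± 0.044 in HCT-116 (adjusted p = 0.000277) and -0.66 ± 0.049 in RKO (adjusted p = 1.27e-05), a difference of -0.34 ± 0.066 (adjusted p = 0.00442) that was not called with the common total.

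PGAM1, phosphoglycerate mutase of the next step, had an FPKM of 210, 262 and 243 with DMSO and 161, 149 and 145 with PAA in HCT-116. In RKO it had 254 and 260 with DMSO and 131, 148 and 171 with PAA. All PAA libraries of both lines lay below all DMSO libraries. Log2 fold changes were -0.64 ± 0.10 (adjusted p = 0.00086) in HCT-116 and -0.78 ± 0.12 (adjusted p = 7e-04) in RKO, and the difference of -0.14 had an interval of -0.50 to 0.21. PGAM4 is a near-identical copy, and reads may be shared with it.

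GPI, glucose-6-phosphate isomerase of the second step, had an FPKM of 56.5, 57.4 and 58.4 with DMSO and 42.2, 39.9 and 38.5 with PAA in HCT-116, and 47.7 and 50.5 with DMSO and 36.2, 38.3 and 36.2 with PAA in RKO. The log2 fold changes, -0.51 ± 0.042 (adjusted p = 1.46e-05) and -0.40 ± 0.047 (adjusted p = 0.000184), differed by 0.10, with an interval of -0.04 to 0.25. In RKO the call did not hold with the common total or with summed transcripts.

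ALDOC, the aldolase isozyme best known from brain (chromosome 17, 28573115 to 28577264), showed the largest fall of any member in HCT-116 on the scale of log2(FPKM + 1). Adding 1 shrinks low values, and PDK3 fell there by a larger fold of FPKM, from a mean of 1.19 to 0.263. The FPKM of ALDOC was 12.7, 14.6 and 13.3 with DMSO and 5.48, 5.66 and 4.95 with PAA in HCT-116. In RKO it was 9 and 8.36 with DMSO and 6.06, 6.34 and 7.3 with PAA. The treatments did not overlap in either line, and the gap between them was narrower in RKO. The log2 fold change was -1.19 ± 0.076 in HCT-116 (adjusted p = 2.66e-06) and -0.36 ± 0.085 in RKO (adjusted p = 0.00877), which differed by 0.83 ± 0.11 (adjusted p = 0.000692). Settings under which the call in RKO was lost include the common total and leaving out RKO DMSO replicate 2. ALDOA, the main aldolase of most tissues, varied from 157 to 223 with DMSO and 110 to 157 with PAA in HCT-116, where its log2 fold change of -0.44 passed narrowly (adjusted p = 0.0456) with overlapping groups. It overlaps AC093512.2 on the same strand (mean FPKM 40.8), and it kept the call in 9 of 21 alternatives.

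Promoters of 4 enzymes are shown. They are LDHA, PGK1 and ALDOC, from among the members that fell in both lines, and PFKM, which changed in opposite directions. The choice was made after their values were seen. The letters are RefSeq's for GRCh38.p14, from 250 bases before to 50 after the RefSeq start, printed 5′ to 3′ on the gene's strand. Capitals mark ACGTG, the core of the hypoxia response element, or its reverse complement CACGT; where both strands match they run together as CACGTG.

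LDHA, chr11:18394313-18394612, plus strand: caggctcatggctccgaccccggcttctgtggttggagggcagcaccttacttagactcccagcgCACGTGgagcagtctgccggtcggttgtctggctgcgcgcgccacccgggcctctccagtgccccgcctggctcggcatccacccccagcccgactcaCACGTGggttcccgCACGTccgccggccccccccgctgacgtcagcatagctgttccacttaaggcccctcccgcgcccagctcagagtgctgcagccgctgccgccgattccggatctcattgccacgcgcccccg
PGK1, chrX:78103998-78104297, plus strand: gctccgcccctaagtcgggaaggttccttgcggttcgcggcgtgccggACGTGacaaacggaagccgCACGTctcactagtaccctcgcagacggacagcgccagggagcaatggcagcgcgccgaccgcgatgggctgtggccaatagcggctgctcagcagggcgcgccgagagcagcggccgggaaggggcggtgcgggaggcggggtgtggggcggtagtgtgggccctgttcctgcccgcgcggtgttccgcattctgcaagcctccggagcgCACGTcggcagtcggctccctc
ALDOC, chr17:28576846-28577145, minus strand: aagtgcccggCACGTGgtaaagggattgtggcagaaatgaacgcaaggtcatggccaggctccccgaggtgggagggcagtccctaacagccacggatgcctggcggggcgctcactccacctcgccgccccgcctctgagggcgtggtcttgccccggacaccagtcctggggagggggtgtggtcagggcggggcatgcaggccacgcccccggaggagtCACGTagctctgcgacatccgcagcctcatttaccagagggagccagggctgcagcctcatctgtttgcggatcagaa
PFKM, chr12:48105623-48105922, plus strand: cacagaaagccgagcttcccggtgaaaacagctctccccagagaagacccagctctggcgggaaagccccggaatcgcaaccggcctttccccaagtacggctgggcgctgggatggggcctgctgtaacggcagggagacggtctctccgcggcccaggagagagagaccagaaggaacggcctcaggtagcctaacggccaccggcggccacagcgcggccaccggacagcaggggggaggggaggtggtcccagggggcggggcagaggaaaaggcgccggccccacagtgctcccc

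Counting each strand, ACGTG occurred 5 times in the LDHA window, 3 times in that of PGK1, 3 times in that of ALDOC and not at all in that of PFKM. Of the other members lower in both lines, GPI and PDK3 had 1 match each, and TPI1, PGAM1, PKM, LDHB and HIF1A had 0. No promoter was listed for SLC2A3, SLC16A1, VEGFA, NDRG1 and BNIP3L, so the 3 members higher in both lines were not searched. ACGTG was present in 12 of the 29 member promoters listed, or 41.4%, and in 21.6% of all 27305 promoters of the same length. The alternative core GCGTG, or CACGC on the other strand, was present in 15 of the 29, or 51.7%, and in 36.3% of all. A match is a run of letters, not a measured binding site.

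Phosphofructokinase commits sugar to glycolysis and is built from 3 isozymes, PFKM, PFKL and PFKP. PFKM, the muscle isozyme, had an FPKM of 20.8, 18 and 20.6 with DMSO and 12.9, 13.1 and 13.1 with PAA in HCT-116. In RKO it had 28.5 and 27.3 with DMSO and 36.8, 36.5 and 34.8 with PAA. It fell by 0.57 ± 0.053 on the log2 scale in HCT-116 (adjusted p = 3e-05) and rose in RKO by 0.36 ± 0.060 (adjusted p = 0.00139), a difference of 0.92 ± 0.080 (adjusted p = 5.56e-05). PFKM overlaps SENP1 on the opposite strand (mean FPKM 5.52), and without knowledge of strand use their reads cannot be told apart.

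PFKL, the liver isozyme, had an FPKM of 15.5, 14.6 and 15.9 with DMSO and 9.77, 10.1 and 9.66 with PAA in HCT-116, a log2 fold change of -0.59 ± 0.045 (adjusted p = 8.6e-06). In RKO its libraries, 6.97 and 7.57 against 6.88, 7.17 and 7.19, overlapped, and the estimate of -0.03 had an interval of -0.15 to 0.08. With the common total it became 0.22 and was called higher. PFKP, the platelet isozyme and the most abundant of the family in HCT-116, rose there by 0.25 ± 0.031 (adjusted p = 0.000167), from 62.4, 60.8 and 63.8 to 74.7, 74.5 and 73.5. In RKO PFKP was at 29.3 and 27.7 with DMSO and 29.9, 29.8 and 29.6 with PAA, and was not called. With the common total it was called higher in RKO.

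Since FPKM is scaled to length, the isozymes were set against each other within a library. The shares rest on the length behind each gene value, which is not given, and summed transcripts would give other shares. In HCT-116 DMSO replicate 1, protein-coding and intron-retaining transcripts of LDHA summed to 213 and 168, beside a gene value of 107. Those of LDHB summed to 382 and 33.1, beside 312. Of the summed phosphofructokinase FPKM in HCT-116, PFKP held 64 ± 0.99% with DMSO and 76.4 ± 0.27% with PAA (SD, n = 3), and PFKM 20.3 ± 0.90% and 13.4 ± 0.17%. In RKO these shares moved the other way, with PFKP at 44.7 ± 0.69% (n = 2) and 40.9 ± 0.43% (n = 3) and PFKM at 43.8 ± 0.27% and 49.4 ± 0.73%. LDHA held 26.8 ± 1.48% of lactate dehydrogenase FPKM with DMSO and 22.3 ± 1.51% with PAA in HCT-116, and 22.3 ± 0.27% and 12.3 ± 0.46% in RKO. For 11 shares in each line an exact permutation test, two-sided, can reach no less than 0.1 in HCT-116 and 0.2 in RKO, so no share could pass. In each line 9 of 11 reached that smallest p and had groups that did not overlap, with adjusted values of at least 0.122 and 0.244.

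**Figure D2:**
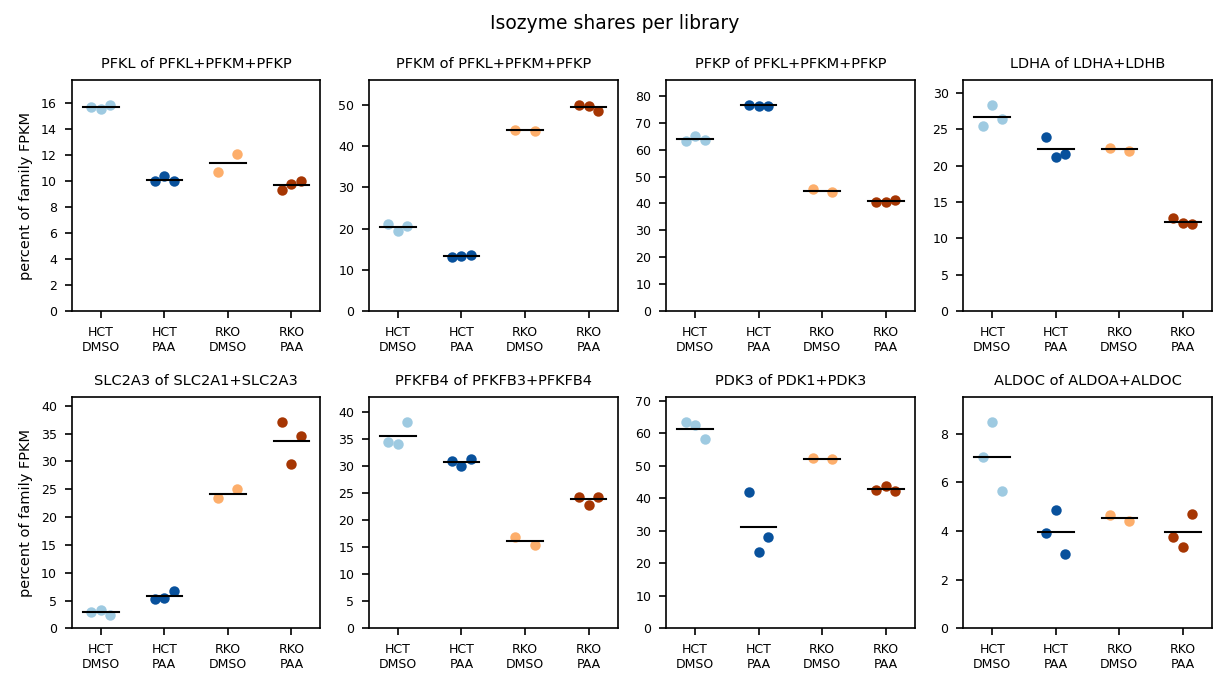
Share of 1 isozyme in the summed FPKM of its family, in percent, per library (points) with the group mean (line); families are named above each panel. PFKM lies lower with PAA in HCT-116 and higher in RKO, and the share of LDHA is lowest in the RKO libraries with PAA.

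Of the remaining enzymes, TPI1 (triosephosphate isomerase) and PKM (pyruvate kinase) were lower in both lines, at log2 fold changes of -0.25 and -0.36 in HCT-116 and -0.45 and -0.46 in RKO. With the common total PKM was called in neither line. ENO1, the main enolase, was lower in RKO alone by call, at -0.39 (adjusted p = 0.00305) against -0.03 in HCT-116; the call in RKO was lost with the common total, and the difference of -0.36 passed (adjusted p = 0.0248) but in 12 of 20 alternatives only. HK2, the inducible hexokinase, rose by 0.12 in HCT-116 (adjusted p = 0.0118), a call lost with a common total of nuclear genes, and was at -0.06 in RKO. With summed transcripts the calls of TPI1 and LDHB in HCT-116 were lost, as was that of LDHB in RKO. HK1, the constitutive hexokinase, GAPDH and the neuronal enolase ENO2 were called in neither line. GAPDH was the most abundant member, at 1490 to 1880 in HCT-116 and 1330 to 1470 in RKO. The 62 pseudogenes named after GAPDH held 0.647 to 0.978% of the summed FPKM per library, and the 4 named after TPI1 held 6.15 to 8.77%.

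**Figure D3:**
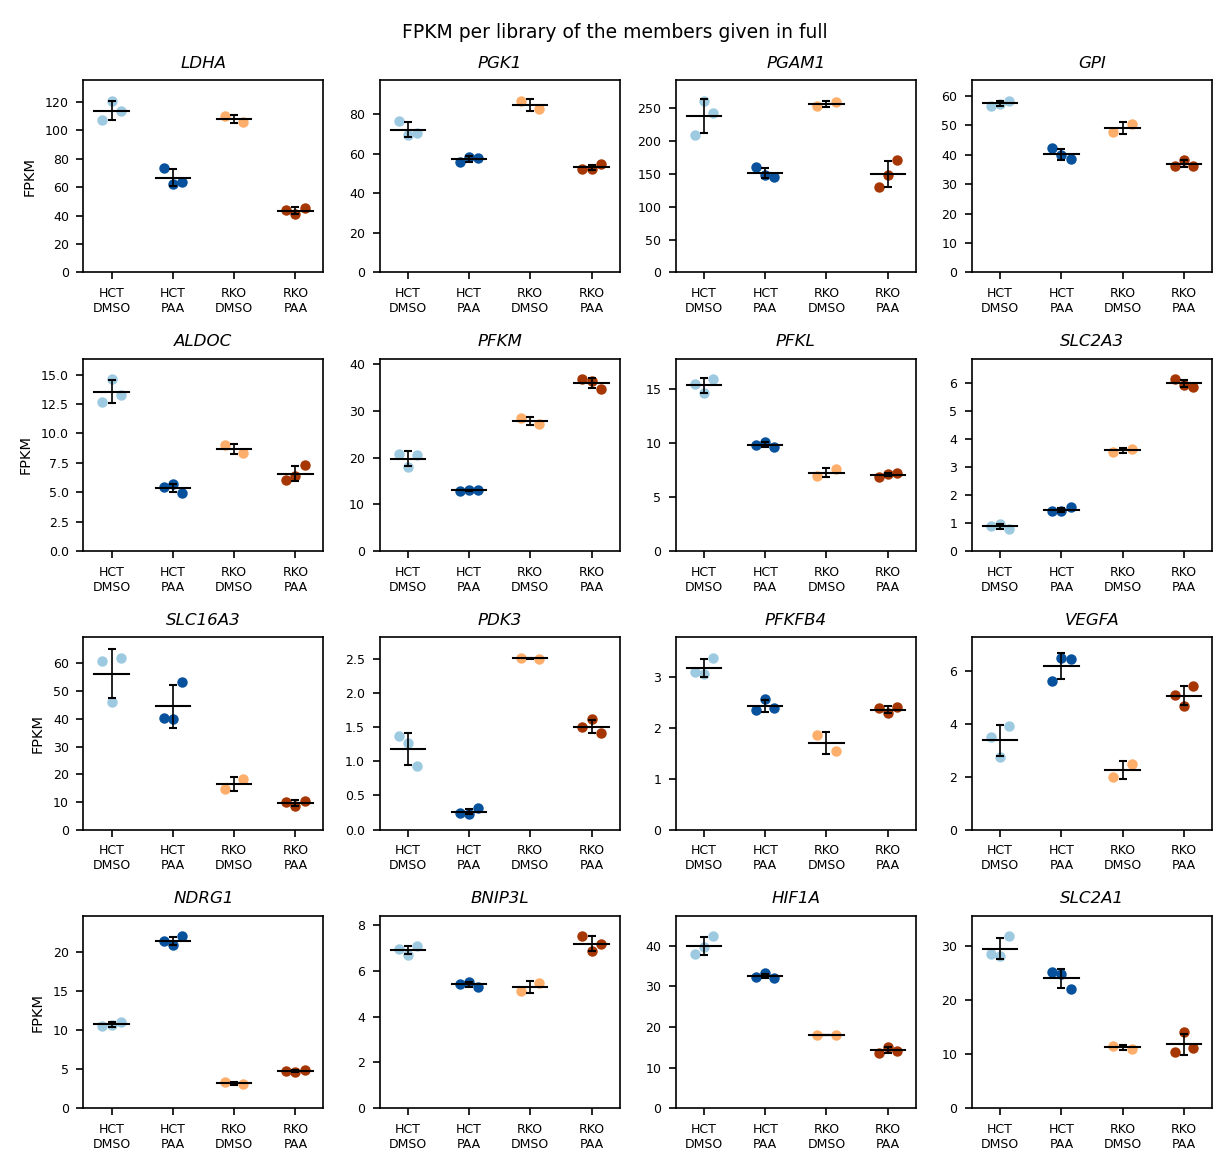
FPKM per library (points) with group mean and SD (bars) for 16 members in the 4 groups, HCT-116 in blue and RKO in orange, darker with PAA; each axis starts at 0. LDHA, PGK1, PGAM1 and GPI lie lower with PAA in both lines, VEGFA, NDRG1 and SLC2A3 higher in both, and PFKM, PFKFB4 and BNIP3L move apart.

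Of the 4 transporters, 1 was higher and 1 lower in each line. That 50% called is near the share of all genes, 47.1% in HCT-116 and 40% in RKO. SLC2A3, the high-affinity glucose transporter GLUT3, had an FPKM of 0.89, 0.97 and 0.805 with DMSO and 1.42, 1.42 and 1.56 with PAA in HCT-116. RKO showed 3.54 and 3.66 with DMSO and 6.14, 5.95 and 5.88 with PAA. The groups did not overlap in either line, and the log2 fold change was 0.39 ± 0.047 (adjusted p = 0.000138) in HCT-116 and 0.60 ± 0.052 (adjusted p = 3.19e-05) in RKO. The difference of 0.22 passed at an adjusted p of 0.0436, but in 5 of 20 alternatives only. Mean FPKM rose by a similar fold in both lines, from 0.888 to 1.47 in HCT-116 and from 3.6 to 5.99 in RKO. Adding 1 to FPKM shrinks the change more in HCT-116, where the values are lower. SLC2A14 is a near-identical copy of SLC2A3, and 3 pseudogenes named after it held 2.01 to 23.1% of the summed FPKM, so part of its value may belong to copies.

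SLC2A1 encodes GLUT1, the glucose transporter usually raised by HIF. Its FPKM was 28.6, 28.2 and 31.8 with DMSO and 25.2, 24.9 and 22 with PAA in HCT-116, a log2 fold change of -0.29 ± 0.10 (adjusted p = 0.0473) that kept its call in 6 of 21 alternatives. In RKO it was 11.6 and 11 with DMSO and 10.4, 14.1 and 11.1 with PAA, and the estimate of 0.06 had an interval of -0.21 to 0.32. SLC2A3 held 2.94 ± 0.44% of the FPKM of these glucose transporters with DMSO and 5.79 ± 0.73% with PAA in HCT-116, and 24.2 ± 1.1% and 33.8 ± 3.81% in RKO.

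SLC16A3, the lactate exporter MCT4, had an FPKM of 60.9, 46.1 and 62 with DMSO and 40.2, 40 and 53.4 with PAA in HCT-116, where groups overlapped and the log2 fold change of -0.33 was not called (adjusted p = 0.106). In RKO it fell from 14.6 and 18.4 to 9.83, 8.58 and 10.4, a log2 fold change of -0.72 ± 0.17 (adjusted p = 0.00904). Without RKO DMSO replicate 3 that value was -0.56 and not called (adjusted p = 0.0819). It overlaps CSNK1D on the opposite strand (mean FPKM 14). SLC16A1, the transporter MCT1, was called in neither line, at 0.10 in HCT-116 and -0.29 in RKO.

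The 4 regulatory kinases act on pyruvate dehydrogenase (PDK1 and PDK3, which switch it off) or set the level of fructose 2,6-bisphosphate, an activator of phosphofructokinase (PFKFB3 and PFKFB4). Of them, 2 were lower in HCT-116, while RKO had 1 higher and 2 lower. These are 50% and 75% called, beside 47.1% and 40% of all genes, for 4 genes only. PDK3 had an FPKM of 1.37, 1.26 and 0.924 with DMSO and 0.249, 0.231 and 0.31 with PAA in HCT-116. Values in RKO were 2.51 and 2.5 with DMSO and 1.5, 1.61 and 1.41 with PAA. The groups did not overlap in either line, and log2 fold changes were -0.79 ± 0.078 (adjusted p = 4.04e-05) and -0.48 ± 0.087 (adjusted p = 0.00197). With summed transcripts neither call held. PDK1, a well-known HIF target, was called in neither line.

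PFKFB4 had an FPKM of 3.11, 3.06 and 3.38 with DMSO and 2.35, 2.57 and 2.4 with PAA in HCT-116, and 1.86 and 1.55 with DMSO and 2.39, 2.29 and 2.41 with PAA in RKO. The lines began apart and the ranges of their PAA libraries overlapped. The log2 fold change was -0.28 ± 0.056 (adjusted p = 0.0027) in HCT-116 and 0.32 ± 0.062 (adjusted p = 0.00328) in RKO, a difference of 0.60 ± 0.084 (adjusted p = 0.000785). PFKFB3 was lower in RKO, at -0.20 (adjusted p = 0.0323), a call that was lost in 7 of 21 alternatives.

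Of the 8 HIF targets, 6 were tested, of which 2 were higher and 2 lower in HCT-116 and 3 were higher and 0 lower in RKO. These are 66.7% and 50% called, beside 47.1% and 40% of all genes, for 6 genes only. VEGFA encodes the angiogenic growth factor VEGF-A and lies on chromosome 6 at 43770184 to 43786487. Its FPKM was 3.49, 2.73 and 3.9 with DMSO and 5.61, 6.49 and 6.45 with PAA in HCT-116. In RKO it was 2 and 2.48 with DMSO and 5.1, 4.68 and 5.41 with PAA. Every PAA library of both lines lay above every DMSO library. The log2 fold change was 0.72 ± 0.11 (adjusted p = 0.000502) in HCT-116 and 0.91 ± 0.12 (adjusted p = 0.000359) in RKO, and it passed in all 21 alternatives in each line. The difference of 0.18 had an interval of -0.18 to 0.55.

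The deposited transcript values divide VEGFA between protein-coding transcripts and transcripts annotated as retaining an intron. The latter summed to an FPKM of 4.36, 5.52 and 6.77 with DMSO and 25.9, 30.7 and 13.6 with PAA in HCT-116, and to 8.95 and 3.37 with DMSO and 11.6, 22.7 and 21.4 with PAA in RKO. Its protein-coding transcripts summed to 9.26, 10.6 and 8.06 with DMSO and 4.86, 9.75 and 10.5 with PAA in HCT-116, and to 2.28 and 3.49 with DMSO and 8.35, 3.66 and 14.8 with PAA in RKO. The treatments overlapped for the protein-coding sum in HCT-116 and for no other of these sums. The division between transcripts was unstable: only 9 of the 34 members had the same most abundant transcript in all 11 libraries, and 16 had 3 or more.

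**Figure D4:**
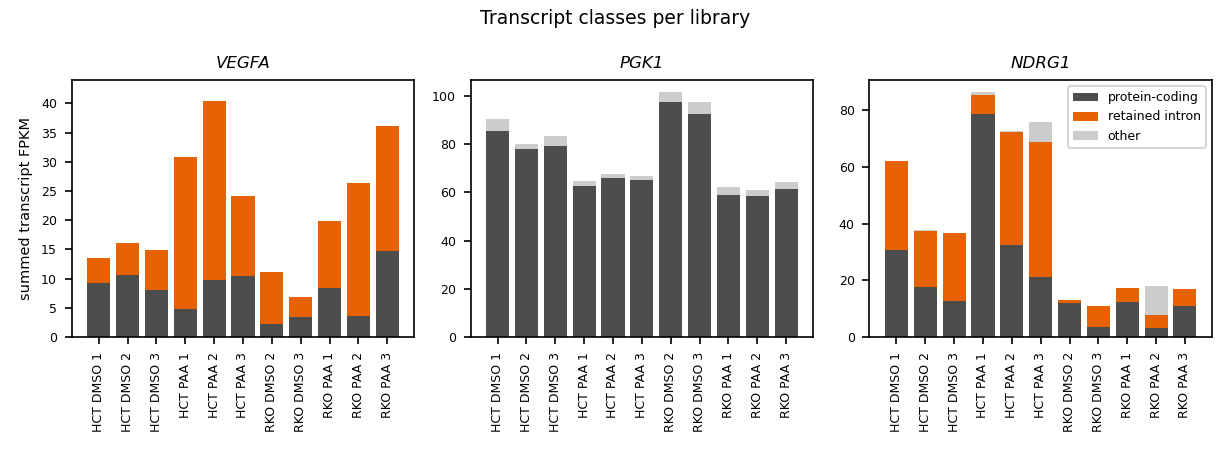
Summed FPKM of protein-coding (dark), intron-retaining (orange) and other (pale) transcripts of VEGFA, PGK1 and NDRG1, 1 bar per library. The intron-retaining part of VEGFA is 13.6 to 30.7 with PAA and 4.36 to 6.77 with DMSO in HCT-116, and the split of NDRG1 varies between replicates of a group.

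NDRG1, a stress- and hypoxia-induced cytoplasmic protein, had an FPKM of 10.5, 10.7 and 11.1 with DMSO and 21.4, 20.9 and 22 with PAA in HCT-116. The values in RKO were 3.35 and 3.07 with DMSO and 4.84, 4.68 and 4.9 with PAA. Levels were higher in HCT-116, and no groups overlapped. Its change was 0.93 ± 0.041 on the log2 scale (adjusted p = 2.88e-07) in HCT-116, the largest rise of a member in that line, and 0.46 ± 0.046 (adjusted p = 6.6e-05) in RKO. The difference was -0.47 ± 0.061 (adjusted p = 0.00057), and with summed transcripts neither it nor the rise in RKO was called.

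BNIP3L, a mitophagy receptor, had an FPKM of 6.93, 6.7 and 7.08 with DMSO and 5.43, 5.5 and 5.3 with PAA in HCT-116. In RKO it had 5.1 and 5.47 with DMSO and 7.49, 6.86 and 7.18 with PAA, so that the treated range of each line overlapped the untreated range of the other. It fell by 0.30 ± 0.042 (log2; adjusted p = 0.000348) in HCT-116 and rose in RKO by 0.38 ± 0.047 (adjusted p = 0.000254), a difference of 0.68 ± 0.063 (adjusted p = 8.29e-05). BNIP3, its relative, fell by 0.26 (log2) in HCT-116 (adjusted p = 0.011), from 6.33 to 7.19 with DMSO down to 5.31 to 6.04 with PAA, a call lost with the common total and with a pseudocount of 0.1, and was near the floor in RKO at 0.0629 to 0.269. The 39 pseudogenes named after BNIP3 held 9.03 to 98% of the summed FPKM per library, so that reads may be shared with them. ADM, the vasodilator adrenomedullin, and ANKRD37, an ankyrin repeat protein, were called in neither line. CA9, the carbonic anhydrase widely used as a hypoxia marker, stayed at 0 to 0.139 in HCT-116 and 0 to 0.0745 in RKO, listed at 0 in every RKO library with PAA, and EGLN3, a HIF prolyl hydroxylase, was at 0.00605 to 0.618.

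HIF1A (chromosome 14, 61695513 to 61748259) had an FPKM of 37.9, 39.7 and 42.3 with DMSO and 32.3, 33.2 and 32.2 with PAA in HCT-116. In RKO it had 18.1 and 18 with DMSO and 13.6, 15.1 and 14.1 with PAA. The groups did not overlap in either line. Log2 fold changes were -0.29 ± 0.049 (adjusted p = 0.0012) and -0.32 ± 0.055 (adjusted p = 0.0016), and in RKO the call was lost with the common total, where the value was -0.047. The difference of -0.03 had an interval of -0.20 to 0.13.

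With DMSO alone, 11 of the 32 members were higher and 14 lower in RKO than in HCT-116, or 78.1% called, beside 64.1% of all genes (33.4% higher and 30.7% lower). Of the 6 HIF targets tested 5 were lower in RKO and 0 higher, with a log2 difference of -1.67 ± 0.064 for ADM. BNIP3, among the 5, passed the filter on low values through HCT-116 alone and so had to differ. The same holds for PDK1, among the 11 higher, which passed through RKO alone. Over both treatments PDK1 was at 1.93 to 2.31 in RKO and 0.347 to 0.796 in HCT-116. The log2 difference was -1.11 ± 0.055 for HIF1A (adjusted p = 1.21e-07), -1.71 ± 0.17 for SLC16A3 and -1.31 ± 0.12 for SLC2A1. HK1, HK2 and SLC2A3 were higher in RKO, at 1.15, 0.98 and 1.29. LDHA, PGAM1, ENO1 and ALDOA did not pass, with LDHA at -0.08 and an interval of -0.26 to 0.11.

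For the difference between the lines in the PAA effect, 6 members were more positive in RKO and 6 more negative, or 37.5% called, beside 31% of all genes (21.3% more positive and 9.68% more negative). The 6 more positive were PFKL, PFKM, ALDOC, SLC2A3, PFKFB4 and BNIP3L, and the 6 more negative HK2, PFKP, PGK1, ENO1, LDHA and NDRG1. With the common total they were 10 and 2, and without RKO DMSO replicate 2 the more negative members were 3.

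Other genes of these pathways are counted by list, to be read against the 47.1% of all genes called in HCT-116 and 40% in RKO and, with the common total in RKO, 49.9% higher and 5.22% lower. Of 27 further HIF targets tested of 34 listed, HCT-116 had 5 higher and 11 lower and RKO had 7 higher and 9 lower, or 10 and 3 with the common total. DDIT4, an inhibitor of mTOR signalling, rose from 67.6 to 73.1 up to 230 to 232 in HCT-116 (log2 fold change 1.70, adjusted p = 9.3e-08) and from 3.84 and 4.82 up to 32.6 to 33.4 in RKO (2.67, adjusted p = 2.99e-08). STC2, a secreted glycoprotein, rose by 1.93 (log2) in HCT-116, from 15.9 to 16.9 up to 64.4 to 66.8. ANGPTL4, an inhibitor of lipoprotein lipase, fell by 1.70 (log2) in RKO, from 24.6 and 25 to 6.76 to 7.28.

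Of 14 regulators of HIF tested, including its hydroxylases and the VHL complex, HCT-116 had 1 higher and 4 lower, and RKO had 4 higher and 2 lower, or 9 and 0 with the common total. That is 35.7% called in HCT-116 and 42.9% in RKO, below and near the share of all genes. Of 20 further regulators and transporters, 4 were higher and 9 lower in HCT-116 and 5 higher and 4 lower in RKO, or 7 and 0 with the common total. PDP1, the phosphatase that reverses the action of the PDK kinases, was at 165 to 171 with DMSO and at 22, 53.2 and 50.8 with PAA in HCT-116, a log2 change of -2.08 ± 0.27 (adjusted p = 0.000244), and stayed at 2.85 to 3.4 in RKO. Of 8 further glycolytic genes tested of 17 listed, HCT-116 had 2 higher and 3 lower and RKO had 2 higher and 1 lower, or 4 and 1 with the common total. HKDC1, a hexokinase family member, was at 0.618 to 0.752 with DMSO and 8.51 to 8.56 with PAA in HCT-116 (2.50, adjusted p = 6.01e-09), and passed the filter on low values only through those PAA libraries.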

How the data were processed

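Per the file headers, the deposited values are the authors' FPKM, in 1 table of 60612 genes and 1 of 229420 transcripts. The tools cutadapt 1.9 and FastQC and the build GRCh38 appear in the submitters' processing notes. Not given in the sources used here: aligner, quantifier, annotation release and strand use. The value 0.0001, written for absent signal, was set to 0. Symbols, coordinates and transcript classes came from GENCODE 29 (GRCh38), and promoter letters from RefSeq.

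Whole reads could not be recovered, since 20.81 to 25.12% of low values per library were whole multiples of 1 fragment within 0.02, so no count model or counting interval was used. In R 4.3.3, limma 3.58.1 was fitted to log2(FPKM + 1) with a mean-variance trend and 1 mean per group over all 11 libraries (7 residual degrees of freedom, prior 1.82). Tests were two-sided, adjusted by Benjamini-Hochberg over 13881 genes, with a threshold of 0.05, and the script was tested on simulated data. Isozyme shares were compared with exact permutation tests. Alternatives changed the pseudocount, filter, scaling, transcript summing, samples fitted, trend and replicate block, and left out each library in turn.

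The members and lists were chosen with earlier results of these data known. Library values are given for members called with an absolute log2 value of at least 0.5 in a line or in the difference, and for HIF1A, SLC2A1, LDHA, CA9 and VEGFA. Genes of the other lists are named where called with a log2 fold change of 1 or more in size, at most 3 per list, direction and line. A gene that this rule names is not reported here. Members or genes named beyond this, PFKP among them, were chosen after their values were seen.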

Additional observations from a re-analysis of the deposited data

Results flagged for a closer look

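The PAA effect differed between the lines, by limma's test of the difference itself (RKO minus HCT-116, adjusted p below 0.05), for 12 members. It was more positive in RKO for PFKM (0.92), ALDOC (0.83), BNIP3L (0.68), PFKFB4 (0.60), PFKL (0.56) and SLC2A3 (0.22). The call for SLC2A3 held in 5 of 20 alternatives only, and its mean FPKM rose by a similar fold in both lines. The PAA effect was more negative in RKO for LDHA (-0.53), NDRG1 (-0.47), ENO1 (-0.36), PGK1 (-0.34), PFKP (-0.19) and HK2 (-0.18). With replicate number as a block, NDRG1 alone of these kept its call. PFKM, PFKFB4 and BNIP3L were the members called in opposite directions in the lines, while PFKL passed in HCT-116 alone and ENO1 in RKO alone. The share of mitochondrially encoded RNA fell more in RKO, from 33.83 to 34.94% down to 18.21 to 18.53%, and the part of this in the differences was not tested beyond the scalings given below.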

How the results depend on the processing

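Of 992 values under alternatives for the 16 tested members given per library, 926 kept their direction and side of the threshold, 44 lost and 8 gained a call, and 14 changed sign; of the others, ALDOA in HCT-116 kept its call in 9 of 21 alternatives and PFKFB3 in RKO in 14. Scaling to a common total gave 11 higher and 6 lower members in RKO and 10 and 2 in the difference, with signs changed, among the 16, for PFKL in RKO (0.22) and, in the difference, PGAM1 (0.031) and HIF1A (0.13). Signs of other members changed too, HK2 in RKO among them (0.22, called higher). By construction this scaling lifts every gene of a library with a lower total FPKM. In RKO that total was 2.645e+05 to 2.657e+05 with PAA, and 3.149e+05 and 3.32e+05 with DMSO. A common total of nuclear genes put the HIF1A difference at 0.006. Median-of-ratios scaling put SLC2A1 in RKO at -0.035, and quantile normalization put it at -0.011 and the SLC2A3 difference at -0.005. Summed transcripts gave SLC2A1 -0.21 and PFKL 0.043 in RKO, and differences of -0.37 for PDK3 and -0.049 for SLC2A1; the cause was not tested. Leaving out 1 library gave 5 to 5 higher and 15 to 17 lower members in HCT-116, 6 to 6 and 11 to 13 in RKO, 5 to 7 and 3 to 7 in the difference, where the 3 came without RKO DMSO replicate 2, and 11 to 12 and 13 to 14 between lines with DMSO; where RKO keeps 1 DMSO library, it is assumed to vary like the other groups. Signs near 0 changed too: PFKL in RKO ranged from -0.086 to 0.02, SLC2A1 in RKO from -0.065 to 0.139 and the HIF1A difference from -0.074 to 0.004. With the replicate block 1 member, NDRG1, was lower in the difference, and the calls not made were HK2 and SLC2A1 in HCT-116, ALDOC, PFKFB3 and PFKFB4 in RKO, and HK2, PFKP, PGK1, ENO1, LDHA and SLC2A3 in the difference. Deviations of same-numbered libraries from their group means correlated at 0.067, -0.134 and -0.134 in HCT-116, and at -0.142 and -0.076 in RKO. With 2 or 3 libraries per group these values cannot show whether such libraries were paired, and the labels do not say. Depth limits the members under an FPKM of 1, and 2 DMSO libraries limit RKO.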
